A study of Mus musculus with 2 samples.

Results

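Regions in which TOBF1 ChIP-Seq peaks crowd together were described on the autosomes of mouse embryonic stem (ES) cells. Peaks of the deposited list on chromosomes 1 to 19 were joined into a chain as long as neighbouring peaks lay at most 10 kb apart, and chains of 6 or more peaks were kept. The regions were thus chosen by the positions of the peaks themselves. This gave 63 dense regions among 9332 chains, and they held 604 of the 11545 autosomal peaks. The whole list has 12181 peaks. ChIP-Seq was done on R1/E mouse ES cells that carry a BAC (a bacterial artificial chromosome, holding a large genomic fragment) with tagged TOBF1. TOBF1 is the product of A830080D01Rik, listed by RefSeq as Bclaf3. The cells were grown in medium with serum and LIF, the cytokine that maintains the undifferentiated state, and crosslinked with formaldehyde and DSG. The series has 1 TOBF1 library, precipitated with an antibody against GFP, and 1 input library from cells with the same construct and no antibody. Only the TOBF1 library has a peak list here, so nothing below has a replicate error, no file of the input was used, and precipitation from cells without the tag was not analysed. The BAC adds a tagged copy of the gene to the resident one, and the labels do not say whether the line is a clone. No expression was measured, so the ES cell label was not checked against marker genes.

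A peak is a stretch of genome where sequenced fragments pile up above the local background. Chromatin of heavily transcribed genes, and repeated sequence whose reads map to several copies, are known to give such pile-ups with many antibodies, so runs of neighbouring peaks are usually inspected for both. TOBF1 is named for binding near octamer motifs, the sequences that POU factors such as Oct4 (Pou5f1) recognise, and the same octamer is a classic element of histone H2B promoters. Many small nucleolar RNAs (snoRNAs), which guide modification of ribosomal RNA, lie in introns of host genes that also encode ribosomal proteins or long noncoding RNAs (lncRNAs). The microRNA 290 cluster is the dominant microRNA cluster of mouse ES cells.

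Sequences that the results turn on come from the RefSeq promoter windows (250 bases before and 50 after a gene's start) and mature microRNAs of GRCm38.p6. The promoter of Gm15319, a gene of placeholder name, lies in the region with the most peaks (chr8:20363153-20363452, minus strand). Its bases inside a peak are in capitals:
Gm15319: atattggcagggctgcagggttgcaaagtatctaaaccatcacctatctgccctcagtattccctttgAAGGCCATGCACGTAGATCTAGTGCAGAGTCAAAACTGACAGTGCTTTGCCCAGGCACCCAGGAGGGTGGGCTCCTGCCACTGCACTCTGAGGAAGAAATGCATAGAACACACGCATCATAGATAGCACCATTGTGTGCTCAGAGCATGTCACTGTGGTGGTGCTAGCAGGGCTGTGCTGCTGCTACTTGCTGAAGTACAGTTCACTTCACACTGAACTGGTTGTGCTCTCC
The window of Tcte3 (chr17:15041510-15041809, minus strand), which encodes a dynein light chain homologue, is identical to those of the neighbours Gm3417 and Gm3448, and its bases inside a peak are in capitals:
Tcte3: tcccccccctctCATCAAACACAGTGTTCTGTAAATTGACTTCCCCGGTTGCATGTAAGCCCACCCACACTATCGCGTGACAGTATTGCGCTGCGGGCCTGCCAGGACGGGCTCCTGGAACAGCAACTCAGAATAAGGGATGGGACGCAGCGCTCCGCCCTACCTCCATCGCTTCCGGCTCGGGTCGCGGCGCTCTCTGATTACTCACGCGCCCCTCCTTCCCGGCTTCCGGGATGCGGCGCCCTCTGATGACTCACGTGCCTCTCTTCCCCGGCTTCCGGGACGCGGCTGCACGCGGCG
Promoters of 2410141K09Rik (chr13:66441069-66441368) and Gm31714 (chr13:65415073-65415372), both on the minus strand, show how close related windows on chromosome 13 are. Capitals mark bases that differ or have no partner in their alignment:
2410141K09Rik: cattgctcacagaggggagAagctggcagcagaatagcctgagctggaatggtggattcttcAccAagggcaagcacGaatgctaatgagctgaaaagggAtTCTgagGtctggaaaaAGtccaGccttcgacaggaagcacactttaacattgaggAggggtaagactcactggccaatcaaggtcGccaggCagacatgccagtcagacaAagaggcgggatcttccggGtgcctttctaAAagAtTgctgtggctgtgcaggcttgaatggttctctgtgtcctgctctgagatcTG
Gm31714: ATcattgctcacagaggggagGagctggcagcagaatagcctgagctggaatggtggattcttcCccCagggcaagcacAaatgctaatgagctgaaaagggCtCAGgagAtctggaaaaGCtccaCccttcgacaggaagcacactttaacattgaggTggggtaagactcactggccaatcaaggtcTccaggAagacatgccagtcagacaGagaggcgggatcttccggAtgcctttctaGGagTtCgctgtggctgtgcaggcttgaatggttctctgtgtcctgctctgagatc
The promoter of Rpsa, a ribosomal protein and snoRNA host gene (chr9:120127516-120127815, plus strand), is shown because a peak crosses its start. Capitals again mark bases inside a peak:
Rpsa: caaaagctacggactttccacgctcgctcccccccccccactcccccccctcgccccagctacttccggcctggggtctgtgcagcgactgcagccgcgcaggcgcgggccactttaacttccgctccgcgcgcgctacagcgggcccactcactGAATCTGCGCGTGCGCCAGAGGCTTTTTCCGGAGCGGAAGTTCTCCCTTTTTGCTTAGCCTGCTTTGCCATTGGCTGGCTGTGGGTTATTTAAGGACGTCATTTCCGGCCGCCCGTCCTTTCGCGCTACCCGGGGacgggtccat
Stretches of 3 H2B histone promoters carry the octamer in capitals (chr13:23746614-23746681, chr13:23571311-23571378 and chr13:21721989-21722056, plus strand):
H2bc3: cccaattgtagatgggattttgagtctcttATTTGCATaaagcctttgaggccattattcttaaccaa
H2bc8: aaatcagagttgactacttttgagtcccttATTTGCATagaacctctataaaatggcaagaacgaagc
H2bc14: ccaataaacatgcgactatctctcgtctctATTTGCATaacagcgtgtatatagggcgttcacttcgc
The seed AAGUGCU (bases 2 to 8, in capitals) is shared by 3 mature microRNAs of the cluster on chromosome 7, whose genes all share bases with peaks:
miR-291a-3p: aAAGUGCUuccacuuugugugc
miR-294-3p: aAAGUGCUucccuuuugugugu
miR-295-3p: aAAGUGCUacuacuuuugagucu

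Peaks of the dense regions made up 5.23% of autosomal peaks (exact 95% interval 4.83 to 5.65%, counting error only). That share is fixed by the rule itself. The regions were 3.21 to 55.02 kb long with a median of 12.8 kb, and 42 of the 63 held 6 or 7 peaks while 14 held 10 or more. They lay on 15 chromosomes, and chromosomes 5, 6, 10 and 18 had none. Chromosome 13 had 12 regions with 132 peaks (16.3% of its peaks), and chromosome 8 had 5 regions with 114 peaks (19.96%). Chromosome 1 had 10 regions and chromosome 9 had 7.

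Sorted by content, 5 regions (68 peaks) held a gene family, 12 (85 peaks) a snoRNA or microRNA gene, 26 (289 peaks) a protein-coding gene, 7 (60 peaks) only a gene of another kind, and 13 (102 peaks) no gene. A region with several kinds was placed in the earliest of these classes. Counted without that order, 41 regions touched a protein-coding gene, 17 an lncRNA gene, 11 a snoRNA gene, 9 a pseudogene and 4 a microRNA gene. Of the 76 protein-coding genes that touched a dense region, 67 shared a base with a peak there. Over all autosomal protein-coding genes, 14.2% shared a base with any peak and 0.368% touched a dense region. All 17 lncRNA genes that touched a dense region shared a base with a peak, against 7.26% of autosomal lncRNA genes, of which 0.137% touched one. Of the 13 pseudogenes in dense regions 5 did, against 1.04% of autosomal pseudogenes, of which 0.137% touched one. A region begins and ends with a peak, so a gene that crosses its edge shares a base with a peak by construction. Only 37 of the 76 protein-coding genes, 5 of the 17 lncRNA genes and 11 of the 13 pseudogenes lay wholly inside a region. The choice of regions by their peaks thus fixes part of these contrasts. Peaks lay inside a protein-coding gene about as often in dense regions (246 of 604, 40.7%) as elsewhere on the autosomes (42.3% of 10941).

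Peaks in dense regions had lower scores than peaks elsewhere. The score is the peak caller's own value, read as −log10 of a q-value, so a higher score means a smaller q. Its median was 6.34 over the 604 peaks in dense regions (quartiles 4.24 and 9.77), against 10.3 over the other 10941 autosomal peaks (quartiles 6.13 and 19.9). Chains of 2 to 5 peaks lay between, at 9.30, and single peaks were at 10.7. By content the median was 5.53 in gene family regions, 6.21 in snoRNA or microRNA regions, 7.11 in protein-coding regions, 6.85 in regions with another gene only and 5.04 in regions with no gene. These values are a description, since the same peak call chose the regions.

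**Figure D1:**
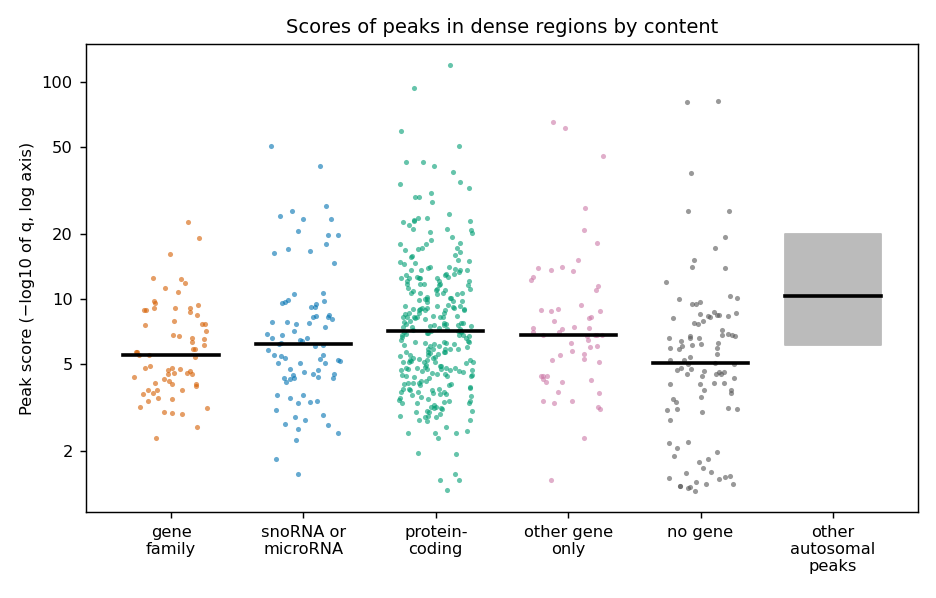
Score of each peak (−log10 of q, log axis) in the dense regions by content class, with the black line at the class median. The last column gives the median (10.3) and quartiles (grey box) of the other autosomal peaks. Every class median, from 5.04 to 7.11, lies below 10.3, and individual peaks reach 119.2.

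Dense regions still held some of the high peaks, and the widest ones. Of the 63 regions, 29 had a highest score of 20 or more, 9 of 50 or more and 12 under 10. Only 2 of the 100 highest autosomal peaks lay in them, but 40 of the 100 widest and 6 of the 10 widest did. Peaks over 500 bp made up 13.6% of peaks in dense regions and 2.89% of other autosomal peaks, although median widths were close, at 228.5 bp in dense regions and 214 bp elsewhere.

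The peaks covered 20.5% of the 937.9 kb inside dense regions, from 4.65% to 80.9% per region with a median of 21.1%. Chains of 2 to 5 peaks were covered to 12.5%. Cover was 50% or more in 9 regions. At the edge of the rule, the 25 chains of 6 peaks had a median length of 6.12 kb, a median cover of 28.6% and a median of their median scores of 5.97. The 28 chains of 5 peaks, just outside it, had 9.19 kb, 16.6% and 8.20.

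**Figure D2:**
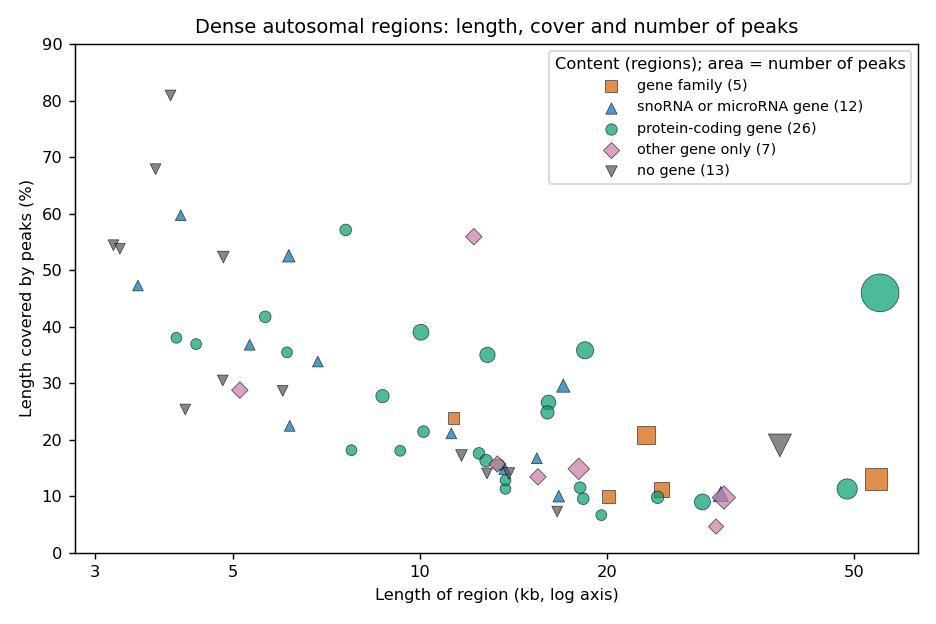
Length of each dense region (kb, log axis) against the percentage of that length in peaks. The shape and colour give the content class and the symbol area gives the number of peaks. The chromosome 8 region around Gm15319 stands out at 55.02 kb and 46.0% cover, and the highest cover, 80.9%, belongs to a short region with no gene.

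Histone genes made up 4 of the 5 gene family regions. Core histones package DNA, H1 histones bind the linker between nucleosomes, and the replication-dependent genes for both are made in bulk when DNA is copied. The 4 regions, all on chromosome 13, held 52 peaks over 110.2 kb with scores of 2.56 to 22.6 and cover of 9.97 to 23.8%. They touched 33 of the 63 autosomal replication-dependent histone genes, and 25 of the 33 shared a base with a peak. Over all 63, 61.9% shared a base with any peak, against 14.2% of all autosomal protein-coding genes, of which 0.368% touched a dense region.

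By histone type, peaks touched 4 of 4 H1 genes, 3 of 6 H2A genes, 7 of 8 H2B genes, 7 of 9 H3 genes and 4 of 6 H4 genes of the regions. Among these genes the highest score was at H1f5 (22.6), followed by H1f3 and H1f1 (both 12.4) and H2bc7 (11.9). Of the 52 peaks of the 4 regions, 32 lay in a protein-coding gene. Peaks of score 19.1, between H1f2 and H3c3, and 16.1, between H2bc14 and H4c11, lay in no gene. Each was the highest of its region. Over the genes with a peak, the median of the highest score per gene was 12.4 for H1, 7.62 for H2B, 4.90 for H3, 4.50 for H2A and 4.07 for H4. The lowest was 3.16, at H4c11. Peaks took up 96.6% of H2bc13 and 71.9% of H2bc7 (1 peak each), and 89.9% of H3c11 and 66.9% of H4c4 (2 peaks each). H2bc22 and H2bc6, listed at 14079 and 37455 bp, had only 3.08% and 1.27% of their length in peaks. No other H2B gene of the regions is longer than 522 bp, so the H2B count rests in part on long gene spans. The region from H4c8 to H2bc6 (chromosome 13, 23531172 to 23585440) was the largest, with 25 peaks over 54.3 kb, of which 17 lay in a protein-coding gene. The genes H2bc14, H2ac10, H4c6, H2ac8, H3c3, H2ac4, H3c2 and H4c2 had no peak. Closely similar histone genes can share reads, so values of single genes are uncertain.

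Promoter windows of histone genes inside dense regions held the octamer ATTTGCAT, searched on both strands, in 5 of 28 cases (17.9%). Of all autosomal windows of replication-dependent histone genes 13 of 59 (22.0%) held it, and of all autosomal windows 1.75%. None of the 27 other windows inside dense regions held it. Windows of Zfp42 and H2bc6, genes that touch a dense region, held it too, but lie outside the regions. H2B windows in the dense regions held it in 3 of 7 cases (42.9%), and all autosomal H2B windows in 7 of 15 (46.7%). The octamers of H2bc8 and H2ac8 are a single site between these divergent neighbours. None of the 5 lay within a peak. The nearest peaks were 20 bp away at H2bc8 (score 7.62), 79 bp at H2bc3 (4.35), 865 bp at H2ac4 (4.56) and 3201 bp at H2bc14 (4.10).

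The remaining gene family region lay in the immunoglobulin heavy chain locus Igh (chromosome 12, 115601748 to 115624868), whose variable segments are joined in B cells. It had 16 peaks over 23.1 kb with scores of 2.29 to 11.2 and cover of 20.9%. It held the segments Ighv1-67, Ighv1-68 (a pseudogene) and Ighv1-69. A peak of score 4.79 took up 70.1% of Ighv1-67, and the other segments had none. Within 250 kb of the region, 29 genes carried the Ighv stem.

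**Figure D3:**
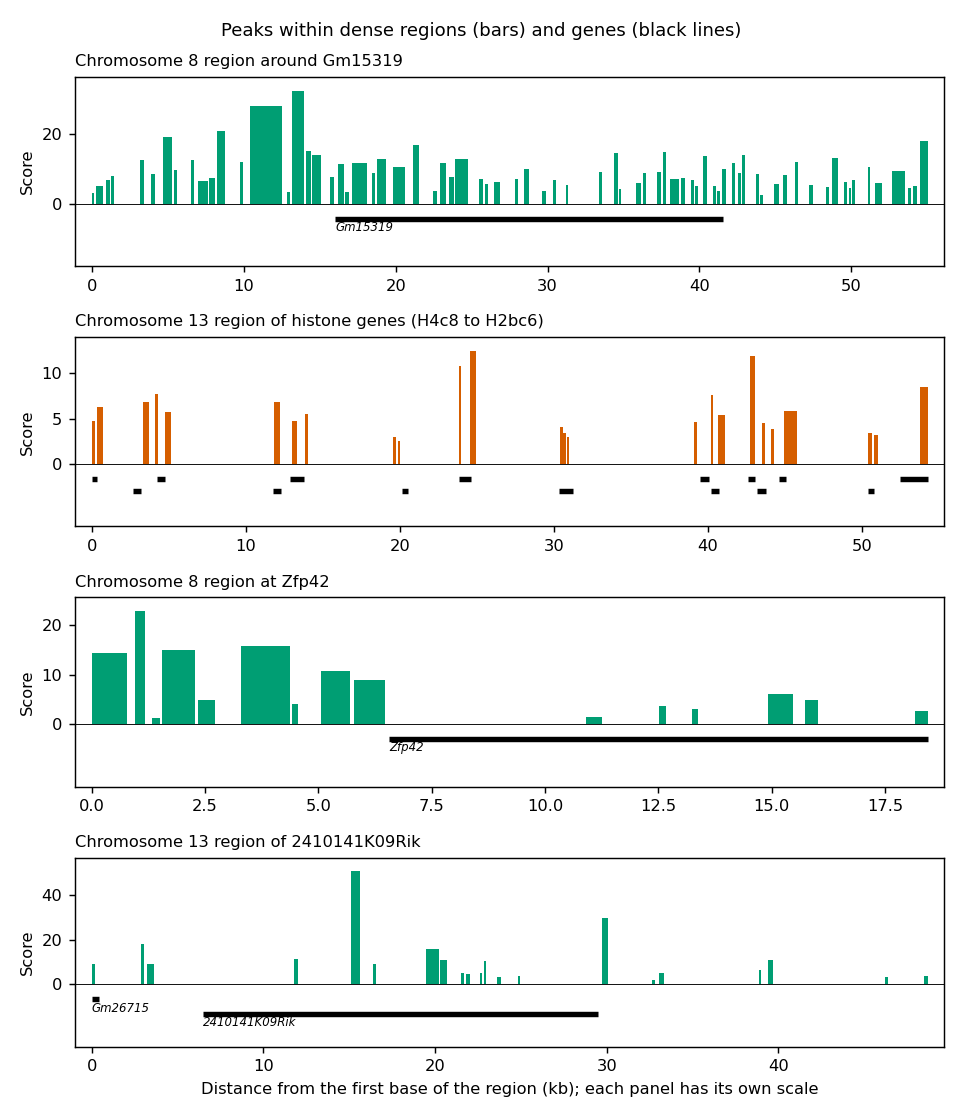
Peaks (bars: width to scale, height the score) and genes (black lines) in 4 dense regions, by distance from the first base of the region in kb. Peaks crowd the Gm15319 region from end to end, cluster at histone genes, lie mostly outside the gene at Zfp42 and reach 50.8 inside 2410141K09Rik.

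SnoRNA or microRNA genes lay in 12 dense regions. The hosts named here are Ncl (nucleolin, a ribosome assembly protein), Gas5 and Zfas1 (lncRNAs), Rabggtb (a prenyltransferase subunit), Rpsa and Rpl3 (ribosomal proteins), Taf1d (an RNA polymerase I factor), 2410006H16Rik and Snhg1 (lncRNAs) and Eif4a2 (a translation helicase), besides the microRNA 290 cluster. Together the 12 regions hold 42 of the 1286 autosomal snoRNA genes (3.27%) and 12 of the 1136 microRNA genes (1.06%). In the dense regions 14 of the 42 snoRNA genes and 6 of the 12 microRNA genes shared a base with a peak. Over the autosomes 16 snoRNA genes (1.24%) and 7 microRNA genes (0.616%) did, so few lay elsewhere. Of the peaks in dense regions 18 touched such a gene, against 3 of the 10941 other autosomal peaks. The choice of regions by their peaks fixes part of this contrast.

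Peaks on snoRNA genes were unevenly spread over the hosts. Of the 19 snoRNA genes in 4 lncRNA hosts, 12 shared a base with a peak: 5 of 8 in Gas5, 3 of 3 in Zfas1, 3 of 6 in Snhg1 and 1 of 2 in 2410006H16Rik. Of the 23 in 7 protein-coding hosts only 2 did, both in Rabggtb (2 of 3). None of those in Eif4a2 (5), Taf1d (6), Ncl (2), Rpl3 (3) and Rpsa (3) did. This split was noticed after the values were seen, and is a description. snoRNA genes of near-identical copies elsewhere can share reads, so single values are uncertain.

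At Gas5 (chromosome 1, 161035213 to 161041369) 8 peaks covered 52.5% of 6.16 kb. The lncRNA itself had 48.2% of its length in peaks, with scores of up to 14.6. At Snhg1 (chromosome 19, 8724560 to 8728080) 6 peaks covered 47.3% of 3.52 kb, and the highest, 17.0, lay outside the lncRNA. At Zfas1 (chromosome 2, 167058881 to 167072579) the highest peak (50.7) was in the neighbour Znfx1, and the next (24.1) was in no gene. Those in Zfas1 reached 10.5. At Snhg1 and Zfas1 the highest peak was thus not over a snoRNA gene.

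Among the protein-coding hosts, Ncl had 8 peaks over 19.2% of its length with scores of up to 20.5, Rpl3 had 4 (up to 9.16), Eif4a2 had 5 (up to 6.83), Taf1d had 4 (up to 9.48) and Rabggtb had 4 (up to 8.24). Rpsa had 3 (up to 6.49), and a peak crosses its start as printed above, and Gm5922, an lncRNA beside it, held the highest peak of that region (16.3). The region of 2410006H16Rik and Lrrc75a (chromosome 11, 62603393 to 62607517) had the highest cover of the class, 59.7% of 4.12 kb, with scores of only 4.28 to 9.78. A peak of score 2.92 took up 66.2% of Mir150, a microRNA of lymphocytes.

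The microRNA 290 region (chromosome 7, 3191970 to 3222478) had 12 peaks over 30.5 kb. In order along the chromosome their scores were 2.86, 41.0, 9.18, 1.56, 23.4, 4.53, 26.9, 25.4, 6.59, 6.25, 5.16 and 4.34. The 4 scores above 20 lie before the microRNA genes, among lower ones. The peaks of score 6.59, 6.25 and 5.16 fall on microRNA genes, and the last peak lies beyond them. Mir291a (6.59), Mir293 (6.25), Mir294 and Mir295 (both 5.16) shared bases with peaks, while Mir290a, Mir290b, Mir292, Mir292b and Mir291b did not. The 3 genes that encode the seed AAGUGCU, printed above, all shared bases with peaks, Mir294 and Mir295 with the same peak. Of the other shared seeds of the cluster, CUCAAAC had 1 such gene of 3, AUCAAAG 1 of 2 and CUCAAAA 1 of 2. Nlrp12, an inflammasome-family gene that overlaps the cluster, had 4 peaks with scores of up to 6.59.

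**Figure D4:**
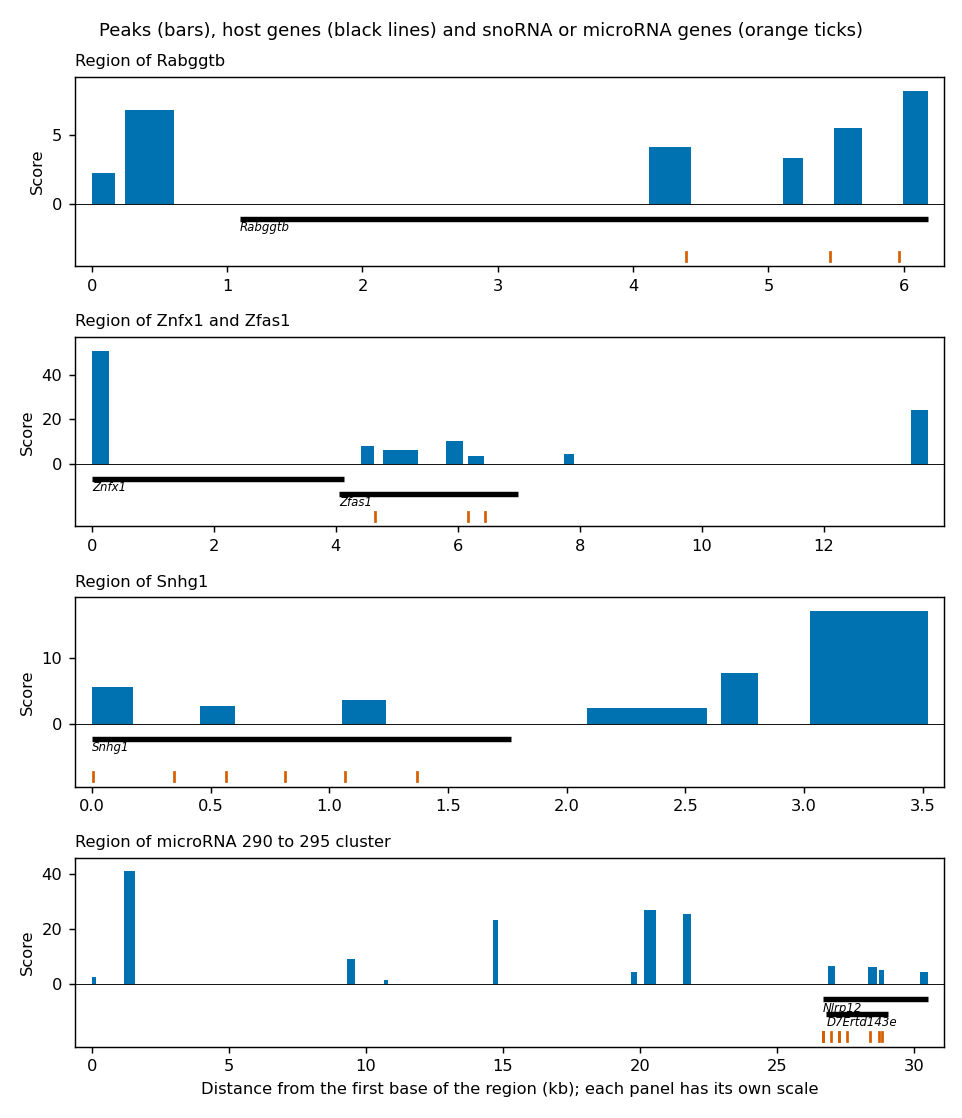
Peaks (bars: width to scale, height the score), host genes (black lines) and snoRNA or microRNA genes (orange ticks) in 4 regions, by distance from the first base of the region in kb. The highest peaks (8.24 at Rabggtb, 50.7 at Znfx1, 17.0 beyond Snhg1 and 41.0 before the microRNA cluster) overlap none of the genes marked by ticks.

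A further 26 regions touched a protein-coding gene and neither a gene family nor a snoRNA or microRNA gene, and 6 of them also held an lncRNA gene or a pseudogene. In 9 of them every peak lay in a gene and in 17 some lay outside, and 168 of the 289 peaks were in a protein-coding gene. Genes of placeholder name, such as Gm15319 and 2410141K09Rik, could not count towards a gene family, even where their promoter windows resemble those of other genes (below). The region with the most peaks anywhere on the autosomes was on chromosome 8 (20321633 to 20376657), with 73 peaks over 55.02 kb, cover of 46.0% and scores of 2.47 to 32.5. Only 34 of its peaks were in Gm15319, whose highest score was 17.0, and 70 of its 72 gaps between peaks were under 1 kb. Regions of 6 peaks (cover 4.65%, up to 8.85, at 6820431F20Rik) and 12 peaks (14.8%, up to 12.3, at 2610005L07Rik) flank it, and the 3 regions together hold 91 peaks along a span of 160.6 kb, not counting peaks between the regions. Both flanking genes are listed as transcribed pseudogenes. Of the 6 peaks, 3 shared bases with 6820431F20Rik. Only 1 of the 12 (score 6.84) did so with 2610005L07Rik, and the peak of 12.3 lay in no gene.

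Of the core pluripotency list, 4 of 39 autosomal genes touched a dense region, and 53.8% of the list shared a base with any peak. Over all autosomal protein-coding genes these shares were 0.368% and 14.2%. Zfp42 (Rex1), an ES cell marker, had the most peaks, 15 in its region on chromosome 8 (43288505 to 43306948), of which 6 were in the gene with scores of up to 6.10 and the highest of the region, 22.9, was not. Esrrb, a nuclear receptor that maintains self-renewal, had 6 peaks in its region, all in the gene, with scores of 2.76 to 16.8. Etv5, an ETS factor downstream of FGF signalling, also had all 6 in the gene (3.32 to 22.8). Tdh, the threonine dehydrogenase that ES cells use for glycine and acetyl-CoA, had 4 of 7 in the gene and the highest of the 4 genes' scores, 42.6. The 4 differ in where the peaks lie: mostly outside the gene at Zfp42, inside at Esrrb and Etv5, and both at Tdh.

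Ribosomal protein genes in dense regions numbered 5 of 72, among them Rpl3, Rps20, Rps24 and Rpsa, and 20.8% of the 72 shared a base with any peak. Of all autosomal protein-coding genes 0.368% touched a dense region and 14.2% shared a base with any peak. Of the 5, Rps20 had the highest score within the gene (9.82), and its region had 11 peaks with a highest score of 41.0 outside the gene. Npm1 (nucleophosmin, a nucleolar chaperone) had a region of 13 peaks over 10.0 kb at 39.0% cover, with 6 peaks in the gene (up to 5.13) and a highest score of 21.9 outside it. Ccnb1ip1, a meiotic crossover factor, touched a region of 7 peaks over 7.60 kb at 57.1% cover, where the widest peak spanned 2501 bp. That peak was the only 1 of the 7 in the gene, and took up 5.88% of its length.

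The high scores of the class differed in how far they stood above the rest of their region. The region at Adam23, a membrane adhesion protein, and the lncRNA Gm35393 (chromosome 1, 63432014 to 63456143) held the highest score of all dense regions, 119.2, in a peak inside no gene (63442085 to 63442961), while its other 7 peaks were at most 6.95. The region of Gm36079 and Gm21188 (chromosome 13, 120024923 to 120037771) had 12 peaks with a highest score of 94.1, in Gm21188, the next at 30.7 and a median of 17.5. Zfp979, a zinc finger gene on chromosome 4, had 13 peaks, all in the gene, with a highest score of 59.4 and the next at 17.2. In 2410141K09Rik on chromosome 13 (66411624 to 66460320), 11 of 21 peaks were in the gene, with a highest score of 50.8 and the next at 29.6.

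Regions with only another kind of gene included long stretches of low cover and short ones of high cover. Gm18260, a pseudogene, lay in a chromosome 13 region (66291713 to 66322562) of 14 peaks with cover of 9.77% and a highest score of 65.2, none of them in the pseudogene. The lncRNA Gm51701 lay in a chromosome 9 region (123925078 to 123937295) of 7 peaks with cover of 55.9%, a highest score of 45.3 and the widest peak of all dense regions, 2657 bp. Gm45966, another lncRNA, had 6 of 7 peaks of its region in it (up to 10.97).

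Among the 13 regions without a gene, 5 lay within 5 kb of a protein-coding gene, 4 at 20 to 100 kb and 4 at over 100 kb. The highest cover of all, 80.9% of 3.97 kb, was 36497 bp from Hcrtr2, an orexin receptor gene (chromosome 9, 76360120 to 76364091), with scores of 4.66 to 10.0. A region 926 bp from B3gnt7, a glycosyltransferase gene, had 67.9% cover and a highest score of 80.7 (chromosome 1, 86308231 to 86311988). A region 1713816 bp from the nearest protein-coding gene, Cntnap5a, had the highest score of the class, 81.2 (chromosome 1, 113958095 to 113970921). The region with the most peaks of the class, 27, lay 566 bp from Mir101c (chromosome 9, 3000145 to 3038103), and its scores reached only 7.18, with a median of 2.76. Chosen after their values were seen, the regions at chromosome 2 (98662412 to 98666606) and chromosome 14 (19416416 to 19419708) had highest scores of only 3.14 and 8.48, and the region 183 bp from Eef1a1, a translation elongation factor gene, had scores between 4.81 and 6.83.

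Signs of repeated sequence were read from positions, neighbours and promoter windows, since no genome was used here. Of the 541 gaps between neighbouring peaks in dense regions, 368 (68.0%) were under 1 kb. With peaks within 1 kb joined, 8 of the 63 regions still had 6 or more pieces and 8 became a single stretch. Exactly equal scores were seen in 2 of 5229 pairs of peaks of a region, both in the same region. The coefficient of variation of the spacing ran from 0.155 to 1.52 with a median of 0.902. It was lowest in the Gm45966 region, whose 7 peaks were the most evenly spaced.

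Regions also came in groups: 19 of the 63 lay in 7 groups of neighbours within 500 kb of each other. The largest group, on chromosome 13 (65620397 to 66630160), had 6 regions that together hold 62 peaks, not counting those between the regions, along a span of 1009.8 kb, with pseudogenes making up 11 of the 20 genes within 250 kb of the Gm18260 region and 51.9% of those around 2410141K09Rik. Around Gm15319 the share was 61.5%, around the histone region from H4c8 to H2bc6 3.16%, and the median over all dense regions was 19.05%. The autosomes hold 9496 pseudogenes beside 20661 protein-coding, 12408 lncRNA, 1286 snoRNA and 1136 microRNA genes. The share over all autosomal genes was not computed, so the median of 19.05% is not by itself a sign of repeated sequence.

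Promoter windows in dense regions numbered 55, of 54 genes, and 27 of these genes had a window that shares bases with a peak. Over all autosomal genes with a window, 0.703% did. This contrast is fixed in part by the choice of regions, since peaks chose them and cover 20.5% of their length. A window that crosses a region's edge also shares a base with a peak by construction. For 10 of the 54 genes a stretch of 31 bases of the window recurred in the window of another gene, where 11.4% of autosomal genes had such a stretch. The 10 are 2410141K09Rik, Cyb5r1, Gm15319, Gm3255, Gm3417, Gm45966, Gm51701, H2ac7, H4c11 and Tcte3.

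Copies of the same promoter did not all carry peaks. The Gm15319 window was identical over all 300 bases to those of 4930467E23Rik and Gm21119 on the same chromosome, and shares 65.6% with that of Gm7697. The window of Gm15319 lay in a peak of score 9.96 and the gene had 34 peaks, whereas the 2 genes with the identical window had 0 and their nearest peaks were 5369 and 25324 bp away. The windows of Tcte3, Gm3417 and Gm3448 were identical over 300 bases, with 1, 1 and 2 peaks in the genes, and only that of Tcte3 lay in a peak (score 5.60). Those of Gm3255 and Gm52298 were also identical, with 5 and 4 peaks in the genes. 2410141K09Rik and Gm45966 shared such stretches with 14 genes each on chromosome 13, 11 of them at 75% identity or more, and 2410141K09Rik matched Gm31714 at 277 of 302 aligned positions (91.7%). The Gm31714 gene had no peak, and the nearest was 56206 bp away. By contrast, the pairs of Gm51701 and Cyb5r1 reached at most 51.7% identity over the aligned windows.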

How the data were processed

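The deposited file used here is a peak list of 1 TOBF1 library; the input library had no file used here. Per the submitters' processing notes, cutadapt, Bowtie2, MACS2 and bedtools were used on mm10, with no versions or settings stated. The sources used here do not say whether the input was the control, how reads at repeated sequence were kept or how deep the libraries are, so depth is unknown. Scores deposited by the authors were taken as −log10 of q, since none was negative and the lowest, 1.30, lies just above −log10 of 0.05. Scores depend on depth and local background and were used only within this list.

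Peaks were chained at gaps of up to 10 kb and kept from 6 peaks. Positions are counted from 1. Genes came from the RefSeq table of GRCm38.p6, which uses the positions of mm10 but gives no strand or exons. A gene belonged to a region when they shared at least 1 base, and a gene family needed 3 genes with the same symbol stem. Placeholder symbols (such as Gm, LOC and Rik) gave no stem, so related genes with such names were not classed as a family. Windows were compared by stretches of 31 bases and by global alignment, and windows that overlap each other were left out. Regions named singly are the 12 with most peaks, the 5 of highest cover, the 5 of highest score and the 4 with most peaks of each class. Genes named are up to 6 in each, every snoRNA or microRNA host and every core pluripotency gene in a dense region. A few others are marked as chosen afterwards. Not every gene under this rule is reported here. The members, lists and rules were chosen with earlier results of these data known. Because the peaks chose the regions, no test was made. Soft-masked shares and recurring sequence inside regions were planned and not run, since no genome was used. The chaining was tested on simulated data. Python 3.11.15, NumPy 2.4.6, pandas 2.3.3, SciPy 1.17.1, Biopython 1.88 and matplotlib 3.10.9 were used.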

Additional observations from a re-analysis of the deposited data

Results flagged for a closer look

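Chains of the same kind lay outside the autosomes, in peaks that no comparison used. On scaffolds outside the chromosomes there were 7 chains of 6 or more peaks with 151 peaks in all, 59 of them on JH584304. On the sex chromosomes there was 1 such chain, on chromosome X (159517409 to 159712350), with 168 peaks over 194.9 kb and cover of 75.6%. It holds the gene of the tagged protein. These values were singled out because they lie outside the main measurement, and their part in the results was not tested.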

How the results depend on the processing

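No paired analysis was possible because the series has 1 library with a peak list. Of 91 recomputed values 48 were labelled as close to the reported ones and 43 as moved. The cause was not tested beyond how each setting is built. These labels do not treat counts and shares alike. With gaps of up to 20 kb, 772 peaks against 604 was labelled close, but the share of 6.69% against 5.23% was labelled moved. The tally is therefore no measure of stability, and the values themselves are given below. With gaps of up to 5 kb the share of autosomal peaks in dense regions was 4.05% and cover 31.6%, and with 20 kb 6.69% and 10.5%. From 5 peaks a chain, the share was 6.44% and cover 19.6%, with 40 protein-coding regions and 14 with another gene only. From 8 peaks there were 21 regions with 335 peaks (2.90%) and cover of 20.3%; snoRNA or microRNA regions fell to 3, protein-coding to 11, other gene only to 2 and no gene to 1. Using only peaks at or above the list's median score left 3 regions with 45 peaks (0.768%), all 3 of them protein-coding and 0 in each other class, with cover of 19.5% and medians of 13.8 in dense regions and 19.1 elsewhere. Merging peaks within 1 kb left 8 regions with 67 peaks (0.635%) and cover of 20.1%: 2 gene family, 1 snoRNA or microRNA, 2 protein-coding, 2 other gene only and 1 no gene, with medians of 7.46 and 10.7. Assigning genes by their midpoint gave 11 protein-coding and 26 no gene regions, and assigning genes within 10 kb left 5 with no gene. Leaving out the chromosome 8 region of most peaks, chosen after seeing the data, gave a share of 4.63% and cover of 18.9%. The median score in dense regions was below that of other autosomal peaks under each of the settings that change peaks or chains. Depth is unknown, so weak peaks cannot be judged against it.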
